A study of Mus musculus with 2 samples.

Results

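The insulin and IGF signalling axis was followed through 10 genes in mouse hearts: the growth factor Igf1, the receptors Igf1r and Insr, the adaptors Irs1 and Irs2, the binding proteins Igfbp3, Igfbp4 and Igfbp5, the PI3-kinase subunit Pik3r1 and the translation repressor Eif4ebp1. They were chosen by gene symbol, as the probes that the platform annotation gives to these names, and they are 10 of 16390 named genes on the array. Each had 1 probe, so no choice among probes was needed. The hearts came from male C57BL/6J mice, 6 months old, fed freely (ad libitum, AL) or restricted by 40% in calories (CR) for 3 months. Mice lacking the NAD-dependent deacetylase Sirt1 in cardiomyocytes (knockout) were compared with their controls. The promoter of the deleting transgene is not given in the sources used here, and cells other than cardiomyocytes keep the gene. One array held a control CR and a control AL heart, the other a knockout CR and a knockout AL heart. The CR heart carried the dye Cy3 and the AL heart Cy5 on both arrays, so diet and dye cannot be told apart, nor can genotype and array. Each condition is 1 heart of 1 mouse, so no value has a replicate check and no test or SD between mice can be given. The signal of Sirt1 itself, from 1 probe, did not set the genotypes apart: it stood at 7.11 (control) and 7.07 (knockout) on the log2 scale under AL and at 7.53 and 7.51 under CR. Whether that probe lies inside the deleted stretch is not given in the sources used here, so it checks the genotype in neither direction, and "knockout" below means the hearts labelled as such.

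Insulin and IGF1 bind the related receptor tyrosine kinases encoded by Insr and Igf1r, which phosphorylate the adaptors IRS1 and IRS2. These recruit PI3-kinase, and the AKT and mTORC1 kinases downstream restrain FOXO transcription factors and phosphorylate 4E-BP1, the product of Eif4ebp1. In the circulation and in tissue, IGF binding proteins hold IGF1 and set how much of it reaches the receptor. In the heart the axis governs muscle growth and glucose uptake, and calorie restriction is known to lower circulating insulin and IGF1 in mice.

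The signals of the 10 genes were weak. A spot was called detected where its brightness exceeded the mean of 2736 blank spots by 2 SD. Detection in all 4 hearts held for 9 of the 10 genes, against 71.4% of all named genes, and 8 of the 10 lay at or above the median normalized signal of the named genes. Over the blank mean, their spot brightness lay between 0.8 scanner units (Irs1, control AL heart) and 112.0 units (Irs2, knockout CR heart). Values below are log2 signals after normexp correction with an offset of 50 and loess within each array. Because the offset is large beside signals of this size, it pulls the ratios of these genes towards 0. Ratios without it (offset 0), with the brightness around each spot subtracted (local background), and from the authors' deposited table of log2 CR over AL ratios are given where they bear on a gene. As a measure of spot noise, the 24 spots each of 6 control probes had SDs of the CR over AL value from 0.0355 to 0.0672 on the control array and from 0.0569 to 0.0883 on the knockout array.

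**Figure D1:**
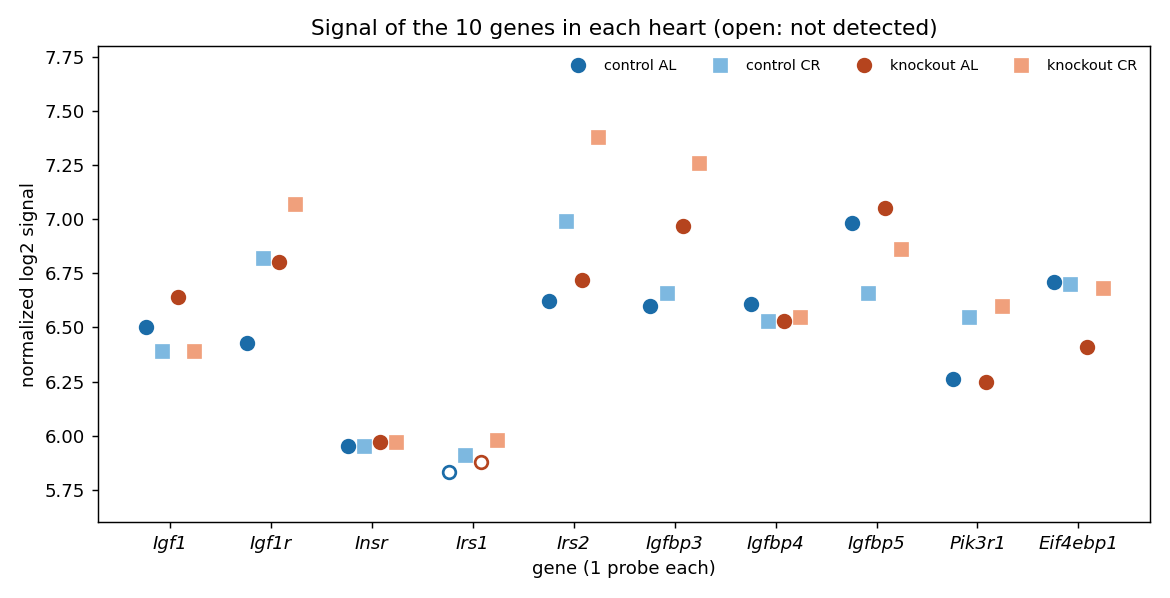
Normalized log2 signal (vertical axis) of each of the 10 genes (horizontal axis) in the 4 hearts, circles for AL and squares for CR, control in blue and knockout in red, with open circles where the spot was not detected. Irs2 and Igfbp3 were highest in the knockout CR heart at 7.38 and 7.26, Igfbp5 was higher in both AL hearts than in both CR hearts, and signals of different genes come from different probes and are not comparable with each other.

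The ligand Igf1 stood at 6.50 (log2 signal) in the control AL heart, 6.39 in the control CR heart, 6.64 in the knockout AL heart and 6.39 in the knockout CR heart. Both CR hearts thus lay below both AL hearts, with CR over AL values of -0.11 in control and -0.25 in knockout hearts. The authors' deposited table gives -0.32 and -0.71 for the same ratios. Subtraction of the local background gave -0.07 and -0.03, so the size on the knockout array depended on that choice.

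Among the binding proteins, Igfbp5, an abundant IGF carrier of connective tissue and muscle, was the one with the lowest CR over AL values. Its log2 signal was 6.98 in the control AL heart, 6.66 in the control CR heart, 7.05 in the knockout AL heart and 6.86 in the knockout CR heart. The AL hearts were again both above the CR hearts, and the CR over AL values were -0.32 and -0.19. Local background subtraction left them at -0.30 and -0.18, and they were -0.65 and -0.40 in the authors' deposited table. Of the 12658 genes compared on the control array, 3.08% had a value as low or lower. On the knockout array 11% of 12142 genes did.

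Igfbp3, the main carrier of IGF1 in blood, which in tissue is made largely by vessel and stromal cells, differed more between the genotypes than between the diets. Its log2 signal was 6.60 (control AL), 6.66 (control CR), 6.97 (knockout AL) and 7.26 (knockout CR). Both knockout hearts lay above both control hearts. The CR over AL values were 0.06 and 0.29, and the knockout over control values 0.37 for the AL hearts and 0.60 for the CR hearts, the latter a 1.51-fold difference that only just passes 1.5-fold. The knockout spots sat in bright surroundings. In the knockout CR heart the spot read 172.8 and its surroundings 164.2 scanner units, against 127.2 and 99.6 in the control CR heart. After subtraction of the local background the genotype difference turned to -0.31 (AL) and -0.23 (CR), and which setting is closer to the true level was not settled.

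Igfbp4, a carrier that mostly holds IGF away from its receptor, varied least of the 3 binding proteins. It was at 6.61 and 6.53 in the control AL and CR hearts and at 6.53 and 6.55 in the knockout AL and CR hearts. Its CR over AL values were -0.09 and 0.03, and the authors' deposited table gives -0.23 and 0.02. Local background subtraction brought them to -0.19 and -0.05, and the knockout over control values to 0.17 (AL) and 0.31 (CR). That CR value was farther from 0 than those of Igfbp3 (-0.23) and Igfbp5 (-0.05).

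The receptor Igf1r, through which IGF1 acts, read 6.43 (log2 signal) in the control AL heart, 6.82 in the control CR heart, 6.80 in the knockout AL heart and 7.07 in the knockout CR heart. Within each genotype the CR heart was the higher, by 0.39 and 0.26. Within each diet the knockout heart was the higher, by 0.37 (AL) and 0.24 (CR). The ratio of CR over AL in the authors' deposited table was 0.87 for the control and 0.45 for the knockout hearts. Local background subtraction left the control response at 0.27, while the knockout response was 0.01 and the genotype differences were 0.04 and -0.21.

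Insr, the insulin receptor, could hardly be followed. Its log2 signal was 5.95 in both control hearts and 5.97 in both knockout hearts. The spot brightness over the blank mean was 5.2 and 8.0 units in the control AL and CR hearts and 6.2 and 7.7 units in the knockout hearts, or 2.9 to 4.4 SDs of the blank spots. On this scale, which the offset compresses, the CR over AL values were 0.01 and 0.00, whereas the authors' deposited table gives 0.25 and 0.15. At this brightness a difference could not be resolved.

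The adaptors IRS1 and IRS2 are paralogs that couple both receptors to PI3-kinase, and Irs2 is known as a gene that fasting switches on in liver through FOXO and CREB. Irs2 had the highest CR over AL value of the 10 genes on the knockout array. Its promoter is shown beside that of Irs1, since both hold the same E-box (CACGTG, a palindrome bound by clock and MYC family factors), and that of Igfbp3 is shown as the other gene past 1.5-fold. The sequences are the 250 bases before the RefSeq start in GRCm38.p6, 5′ to 3′ on the gene's strand, with CACGTG in capitals. Irs2 lies at chr8:11008930-11009179 (minus strand), Irs1 at chr1:82291440-82291689 (minus strand) and Igfbp3 at chr11:7213924-7214173 (minus strand).
Irs2: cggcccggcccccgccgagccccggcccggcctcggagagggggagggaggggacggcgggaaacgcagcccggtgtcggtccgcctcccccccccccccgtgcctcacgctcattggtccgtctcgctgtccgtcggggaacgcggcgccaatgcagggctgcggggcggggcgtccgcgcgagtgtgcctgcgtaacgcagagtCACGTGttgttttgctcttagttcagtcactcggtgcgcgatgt
Irs1: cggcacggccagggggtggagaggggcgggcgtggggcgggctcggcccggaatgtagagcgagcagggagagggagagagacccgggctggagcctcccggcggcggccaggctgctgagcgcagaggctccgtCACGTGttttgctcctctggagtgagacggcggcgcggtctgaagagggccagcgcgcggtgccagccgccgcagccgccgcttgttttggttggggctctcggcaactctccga
Igfbp3: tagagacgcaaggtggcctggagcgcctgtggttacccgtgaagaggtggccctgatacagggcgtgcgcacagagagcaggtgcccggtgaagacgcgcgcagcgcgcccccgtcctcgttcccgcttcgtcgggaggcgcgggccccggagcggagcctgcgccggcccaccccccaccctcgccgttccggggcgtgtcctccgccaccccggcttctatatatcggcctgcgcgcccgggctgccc
The E-box spans bases 44 to 39 before the start of Irs2 and bases 115 to 110 before that of Irs1. The longest runs that both windows share were 2 of 10 bases, GTCACGTGTT around the E-box and TGTTTTGCTC, which begins 111 bases before the start of Irs1 and 37 bases before that of Irs2.

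Promoters were given for 8 of the 10 genes (9 windows, since Pik3r1 has a pair), and CACGTG was found in those of Irs1 and Irs2 only, against 6.02% of 32851 mouse promoters. The FOXO letters GTAAACA, searched on both strands, were in 0 of the 9 windows and in 3.17% of all. The glucocorticoid receptor letters AGAACA were in 0 of the 9 and in 16.1% of all. A match describes letters and is no binding site, and its absence from 250 bases says nothing of sites elsewhere. The windows of Irs2, Irs1, Igfbp3 and Igf1r had GC contents of 72.8%, 72.4%, 73.2% and 77.6%, against a median of 52.4% over all promoters. Those of Igfbp4, Igfbp5 and Igf1 were at 69.2%, 58.8% and 52.8%, and the pair of Pik3r1 windows at 76.4% and 42.4%.

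On the log2 scale, the Irs2 signal was 6.62 in the control AL heart, 6.99 in the control CR heart, 6.72 in the knockout AL heart and 7.38 in the knockout CR heart. Both CR hearts were above both AL hearts. The CR over AL values were 0.37 in control and 0.67, or 1.59-fold, in knockout hearts. On the knockout array 61 of 12142 genes (0.502%) had a value as high or higher, and on the control array 448 of 12658 (3.54%) did. The authors' deposited table gives 0.71 and 1.14. In the control CR heart the surroundings of the Irs2 spot, at 169.2 scanner units, were brighter than the spot at 156.3. Less the local background, the control value was -0.09 and the knockout value 0.35.

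Irs1 was at the edge of detection. It was not well above background in either AL heart, at 0.8 and 2.5 units over the blank mean, and was detected in the CR hearts at 5.2 (control) and 8.2 units (knockout). Its log2 signal was 5.91 in the control CR heart and 5.98 in the knockout CR heart. The floor of the AL channel was the higher of its lowest detected signal and the measured one. Against it, in the main setting only, Irs1 was at least 1.05-fold (control) and 1.07-fold (knockout) higher with CR. Such bounds are open to dye bias, and on the log2 scale (0.07 and 0.10) they are close to the spot noise. Spot and surroundings read 33.2 and 25.4 units (control AL), 80.1 and 72.7 (control CR), 37.4 and 25.5 (knockout AL), and 83.9 and 80.7 (knockout CR). In neither genotype did the spot exceed its surroundings by more under CR than under AL, so the direction depended on the background setting.

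Pik3r1, which encodes the p85alpha family of regulatory subunits of PI3-kinase, behaved alike on both arrays. Its log2 signal was 6.26 and 6.55 in the control AL and CR hearts and 6.25 and 6.60 in the knockout AL and CR hearts. The CR over AL values were thus 0.28 and 0.35, with genotype differences of -0.01 (AL) and 0.05 (CR). In the authors' deposited table the ratios were 0.81 and 1.0, and local background subtraction brought them to 0.04 and 0.05.

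For Eif4ebp1, whose product blocks the cap-binding factor eIF4E until mTORC1 phosphorylates it, the knockout AL heart stood lowest. The log2 signal there was 6.41, against 6.68 in the knockout CR heart and 6.71 (AL) and 6.70 (CR) in control hearts. The CR over AL value was -0.01 in control and 0.27 in knockout hearts, and the knockout over control value was -0.30 under AL and -0.02 under CR. The authors' deposited table gives -0.06 and 0.65 for the diet ratios. Less the local background these were 0.00 and 0.06, and the AL genotype difference was 0.03.

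**Figure D2:**
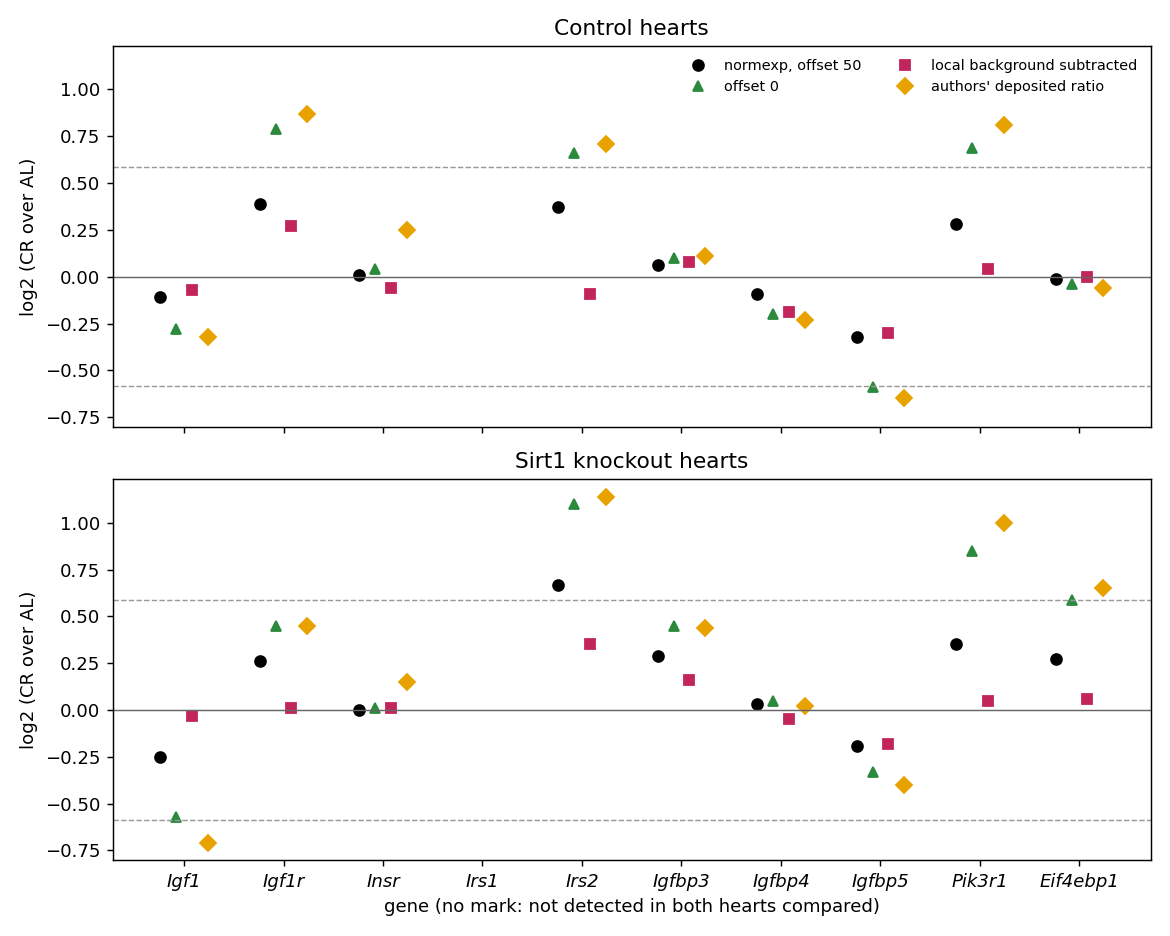
Log2 CR over AL values (vertical axes) of each gene on the control array (top) and knockout array (bottom) under 4 ways of processing, with dashed lines at 1.5-fold. Igf1r, Irs2 and Pik3r1 lie above 0 and Igf1 and Igfbp5 below 0 on both arrays, with the exception of Irs2 on the control array after local background subtraction (-0.09), and the values without the offset are larger.

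Seen together, the 9 genes compared in control hearts had a median of 0.01 (the value of Insr), against 0.00 over all genes. They split into 5 above and 4 below 0, where 51.4% of all 12658 genes lay above 0. None was past 1.5-fold (0.585 on the log2 scale), which 1.15% of all genes passed. In knockout hearts 7 lay above and 2 below 0 (median 0.26, against 0.00 over all genes), where 50.1% of all genes lay above 0. Irs2 was the only member past 1.5-fold there, against 1.52% of all genes. Over all genes the calls on the control array divided into 103 higher and 43 lower, but into 209 and 25 when each array was centred on its median without loess and into 127 and 162 with the local background subtracted. No direction of the members with an absolute value over 0.10 turned under median centring. Without the offset, 4 members were past 1.5-fold in control hearts (Igf1r, Irs2 and Pik3r1 higher, Igfbp5 lower), against 6.05% of all genes, and 3 in knockout hearts (Irs2, Pik3r1 and Eif4ebp1, all higher), against 6.64%. In the authors' deposited table it was 4 in each, against 13.3% and 13.9% of all genes. After subtraction of the local background it was 0 in each, against 2.28% and 3.48%.

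**Figure D3:**
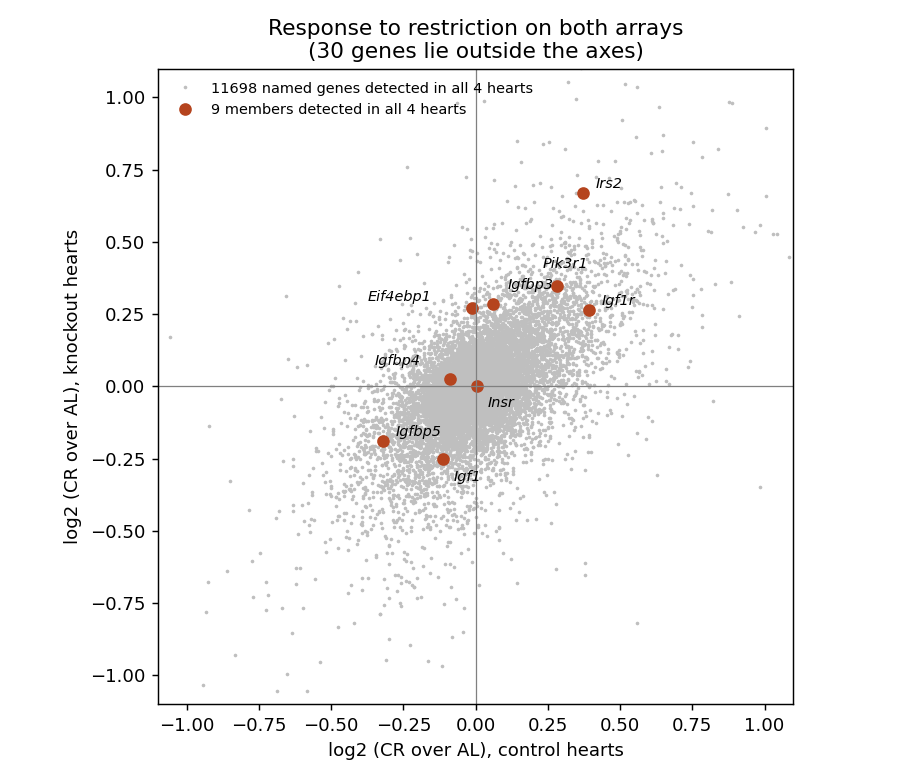
Log2 CR over AL on the knockout array (vertical axis) against the control array (horizontal axis) for 11698 named genes detected in all 4 hearts (grey) and the 9 members among them (red, named). Irs2 lies farthest from the centre at 0.37 and 0.67, and most of the members lie inside the cloud of all genes.

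Subtracting the control response from the knockout response takes out whatever dye bias the arrays have in common. That difference was 0.30 for Irs2, 0.28 for Eif4ebp1, 0.23 for Igfbp3, 0.13 for Igfbp5 and 0.11 for Igfbp4. For Pik3r1 it was 0.07, for Insr 0.00, for Igf1r -0.13 and for Igf1 -0.14. Of the 9, 6 lay above 0 (49% of all genes did), with a median of 0.11. None passed 1.5-fold, which 0.889% of 11698 genes did (44 upward and 60 downward, or 32 and 93 with median centring and 381 and 256 with the local background subtracted). For Irs2, 2.68% of all genes had a difference as high or higher, and the value was 0.44 both without the offset and after local background subtraction. The latter value uses the control CR spot, which at 156.3 scanner units was dimmer than its surroundings at 169.2. The difference of Eif4ebp1 was 0.63 without the offset, where it was the 1 member past 1.5-fold against 7.01% of all genes, and 0.70 in the authors' deposited table, again as the 1 member, against 13.3%. It was 0.06 with the local background subtracted, where 0 members and 5.45% of all genes passed.

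Between the genotypes, 0 of 9 members were past 1.5-fold in the AL hearts, against 4.35% of 12783 genes, and 1 of 10, Igfbp3, in the CR hearts, against 2.51% of 11957 genes. Members above 0 numbered 6 of 9 (AL) and 8 of 10 (CR), against 52.6% and 51% of all genes, with medians of 0.07 and 0.06, against 0.01 and 0.00. Over all genes the calls under AL divided into 329 higher and 227 lower, but into 224 and 407 with median scaling of the channels. Under CR they divided into 171 and 129, or 101 and 280 with that scaling. Irs2 was higher in the knockout heart by 0.10 (AL) and 0.40 (CR), and by 0.35 and 0.79 with the local background subtracted. The value of 0.79 uses the control CR spot, which was dimmer than its surroundings (156.3 against 169.2 scanner units). For the genotype comparisons, spots of the bright positive controls had combined SDs of 0.25 to 0.29, and those of the dim negative controls had SDs of 0.0693 to 0.116. Apart from Insr and Irs1, which are about as dim as the negative controls, the members lie between both kinds of control in brightness, so which of these SDs applies to those members is not known. Without the offset 3 members were past 1.5-fold under AL (Igf1r and Igfbp3 higher, Eif4ebp1 lower), against 12.2% of all genes, and 2 under CR (Igfbp3 and Irs2, both higher), against 10.9%. After subtraction of the local background it was 0 (19.2% of all genes) and 1, Irs2 (21.5% of all genes). With the blank mean subtracted and median centring together it was 3 in each, against 20.6% and 17.6%.

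**Figure D4:**
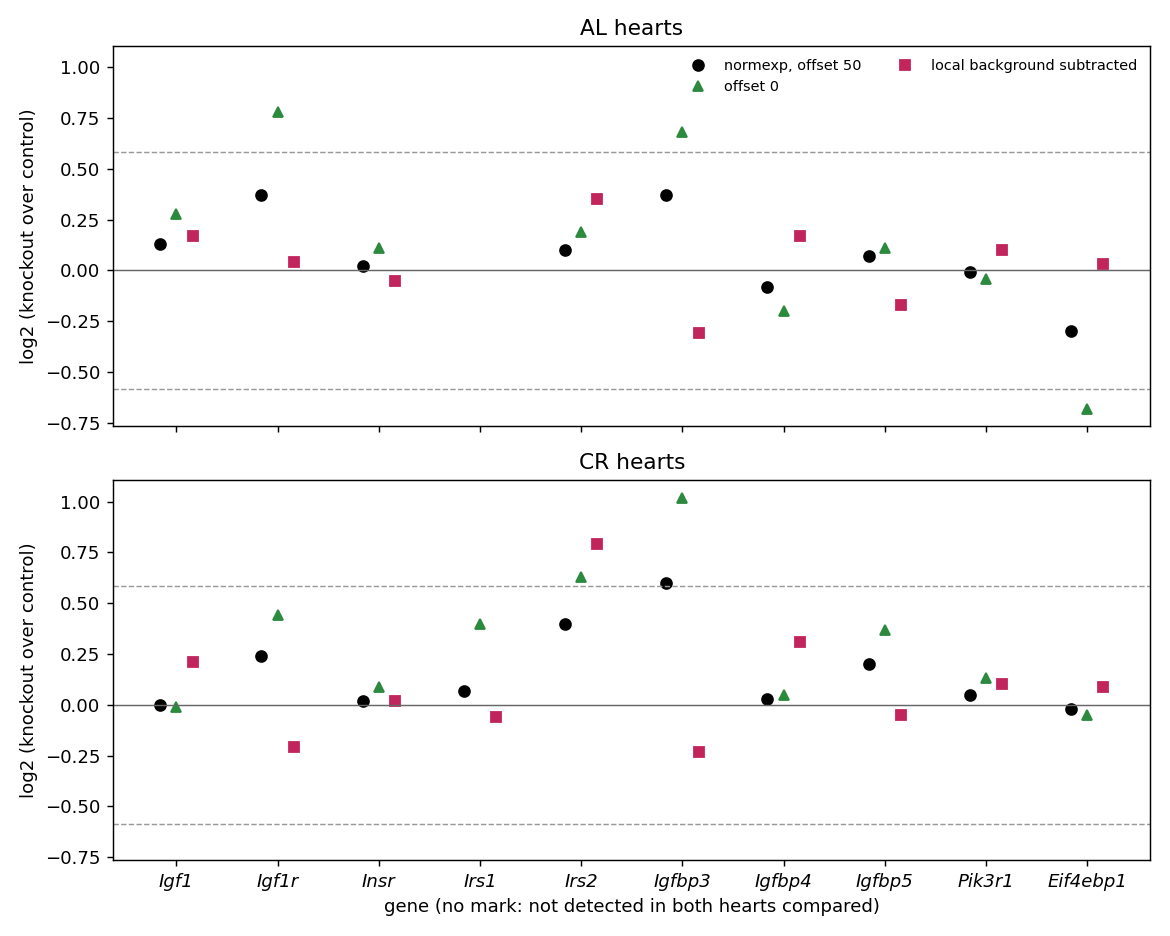
Log2 knockout over control values (vertical axes) of each gene in the AL hearts (top) and CR hearts (bottom) under 3 ways of processing, with dashed lines at 1.5-fold. Igfbp3 lies at 0.37 and 0.60 in the main setting and below 0 with the local background subtracted, whereas Irs2 lies above 0 in all 3. With the local background subtracted, the Irs2 value of the CR hearts uses a control spot dimmer than its surroundings.

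Beyond the 10 genes, 62 of 68 further genes of the pathway had a named probe. In control hearts 57 were detected in both channels, with 2 past 1.5-fold upward and 0 downward (median 0.00), where 1.15% of all genes passed either way. In knockout hearts 54 were detected, with 1 upward and 0 downward (median -0.005), against 1.52% of all genes. These counts moved with the processing: upward and downward, they were 0 and 1 (control) and 3 and 1 (knockout) with the local background subtracted, 3 and 2 and then 5 and 0 without the offset, and 5 and 3 and then 6 and 0 in the authors' deposited table. The shares of all genes past 1.5-fold either way were 2.28% and 3.48%, 6.05% and 6.64%, and 13.3% and 13.9% in the same order. Pik3ip1, an inhibitor of the PI3-kinase catalytic subunit, was at 8.13 and 8.74 in the control AL and CR hearts and at 8.20 and 9.0 in the knockout hearts. Its CR over AL values of 0.61 and 0.81 were 0.52 and 0.72 with the local background subtracted. Of these further genes, 31 of 57 lay above 0 in control and 25 of 54 in knockout hearts, where 51.4% and 50.1% of all genes did. In control hearts, by role, 5 of 8 binding proteins and their proteases, 6 of 13 adaptors and their inhibitors, 7 of 13 PI3-kinase and AKT genes, 7 of 10 mTOR genes and 6 of 10 translation genes lay above 0. In knockout hearts these counts were 6 of 8, 2 of 11, 5 of 13, 5 of 10 and 5 of 9, and local background subtraction changed those of the mTOR genes to 5 of 10 (control) and 3 of 10 (knockout). The other ligands (0 of 2 and 1 of 2) and receptors (0 of 1 and 1 of 1) were too few to describe. Eif4g1, the scaffold of the cap-binding complex that 4E-BP1 competes with, was at 0.68 in control and 0.56 in knockout hearts. In control hearts it was not past 1.5-fold upward with the local background subtracted. For the difference of the responses, 0 of 53 were past 1.5-fold, against 0.889% of all genes. Under AL 53 were compared between the genotypes, and 2 were past 1.5-fold, where 4.35% of all genes passed. In the main setting, the only one given for them here, these were the growth factor Igf2 (-0.94) and the kinase Akt2 (-0.65), both lower in the knockout heart. Under CR it was 1 of 56, against 2.51% of all genes. That gene was Ddit4, a stress-induced inhibitor of mTORC1, at 0.61, which turned to -1.02 with the local background subtracted.

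The genes whose pattern over the 4 hearts was most like that of Irs2, among 11698 genes and by the Euclidean distance of centred log2 signals, were Timm29 (0.045), Map3k6 (0.057) and Asrgl1 (0.076). Timm29 encodes a subunit of a mitochondrial import complex and had log2 signals of 8.14 and 8.56 in control hearts (AL, CR) and of 8.28 and 8.91 in knockout hearts. Map3k6, a stress-responsive kinase, stood at 6.70 and 7.05 and at 6.73 and 7.46 in the same order. A likeness over 4 hearts is a description of these hearts only.

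Markers of cell types that can make these factors differed between the hearts as well. All 7 cardiomyocyte markers with a named probe were detected in all 4 hearts, and their summed linear signals were 214825 and 184261 in the control AL and CR hearts and 236441 and 192604 in the knockout AL and CR hearts. Fibroblast markers, 8 of 8 detected, had summed linear signals of 3653 and 2868 in the control AL and CR hearts and of 4042 and 3214 in the knockout AL and CR hearts. The CR hearts were thus the lower in both genotypes for fibroblast and cardiomyocyte sums, as for the macrophage and endothelial sums below and for Igf1 and Igfbp5. Adipose marker sums went the other way, at 9940 (AL) and 12000 (CR) in control and 8551 and 9365 in knockout hearts. Those of skeletal muscle were 6343 and 8898 in control and 6377 and 5984 in knockout hearts. Some adipose and skeletal muscle markers were not detected in all hearts. A linear sum weighs the brightest markers most, and single markers could go against it. The endothelial Cdh5 on both arrays and the macrophage Cd68 in control hearts had CR over AL values above 0. Of the fibroblast markers, 5 of 8 (control) and 7 of 8 (knockout) had CR over AL values below 0, where 51.4% and 50.1% of all genes lay above 0. Macrophage markers, 6 of 6 detected, summed to 901 and 776 in control hearts and to 1337 and 907 in knockout hearts. Smooth muscle and pericyte markers, 6 of 6 detected, summed to 1254 and 1397 in control hearts and to 1649 and 1619 in knockout hearts. Endothelial markers, 7 of 7 detected, summed to 2680 and 2363 in control hearts and to 2296 and 1703 in knockout hearts. Igfbp3 was higher in the knockout hearts in the main setting, but lower there with the local background subtracted (-0.31 under AL and -0.23 under CR). Of 4 liver markers with a probe, 3 were detected in each control heart and 2 in each knockout heart, and Alb and Apoa1 were not detected in all hearts. In these bulk samples fewer cells of a type and less RNA per cell cannot be told apart, and the part of cell makeup in the values of Igf1, Igfbp5 and Igfbp3 was not tested.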

How the data were processed

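Each array gave the median spot intensity in the red (Cy5) and green (Cy3) channel and the median intensity around each spot, per the file headers, which also give line fits between scans at different gain. Dyes and hearts were matched per the labels. The log2 values of the deposited table are, per the labels, ratios with CR above AL. They were rebuilt from the intensities minus the blank mean, up to a constant of 0.3589 (control) and 0.1439 (knockout) on the log2 scale, within 0.001 for 17405 of 17405 and 16555 of 16555 values, so scale and direction are settled. The column medians were -2.885e-06 and 8.079e-05.

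With limma 3.58.1 in R 4.3.3, intensities were corrected with normexp (offset 50, no local background) and normalized by loess, with control and scanner-marked spots at weight 0. Separate channels followed Aquantile normalization. Detection used the blank mean after leaving out 5% at each end, plus 2 SD; by it 74.0% to 80.7% of the 23473 probes were detected per heart. The number of arrays limits the precision. Symbols came from the platform annotation for 16631 probes (12622 current, 3947 updated through a synonym in the GRCm38.p6 gene table, 62 unmatched), and 6842 probes stayed unnamed. The brightest probe stood for a gene. The normalization was tested on simulated data, with changes placed only in probes of higher mean signal over the blank spots than any member. Only CR over AL values were scored there, so it does not cover signals this dim or the genotype comparisons. Alternatives were an offset of 0, subtraction of the local background or of the blank mean, median centring, loess within each block, median scaling of the channels, other filters on dim spots, the mean over a gene's probes and the deposited ratios. With 1 heart per condition no test was run, and a value is called past 1.5-fold by its size alone.

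The members, the lists, the processing and the alternatives were chosen with earlier results of these data known. The text names all 10 members, further pathway genes past 1.5-fold (up to 3 each way) and the 3 genes of most like pattern for the members with the largest responses.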

Additional observations from a re-analysis of the deposited data

Results flagged for a closer look

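Some genes had values of opposite sign in the compared genotypes or diets. Each side is 1 heart pair and the difference was not tested. For CR over AL, Eif4ebp1 was at -0.012 in control and 0.270 in knockout hearts, a difference of 0.28, and Igfbp4 was at -0.088 and 0.025, a difference of 0.11. For knockout over control, Igf1 was at 0.133 under AL and -0.005 under CR, a difference of -0.14. Igfbp4 was at -0.085 and 0.028 (0.11), and Pik3r1 at -0.013 and 0.053 (0.07).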

How the results depend on the processing

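The counts of members past 1.5-fold rested on the background correction. In control hearts the count of 0 became 4 (3 higher, 1 lower) with an offset of 0, with the blank mean subtracted and median centring, and in the authors' deposited ratios. In knockout hearts the count of 1 became 3, 4 and 4 in these settings and 0 with the local background subtracted. For the difference of the responses 0 became 1 in each of these settings except local background subtraction, which gave 0. The blank-subtracted and the deposited CR over AL values of the members are the same to 2 decimals, so they count as 1 alternative. Between the genotypes, 0 became 3 under AL and 1 became 2 and 3 under CR with an offset of 0 and with the blank mean subtracted and median centring. The CR count of 1 became 0 with median centring, loess within each block or median scaling, since Igfbp3 lay close to the threshold. With the local background subtracted Igfbp3 reversed to -0.23 there, and the count of 1 was then Irs2. The Irs2 spot of the control CR heart was dimmer than its surroundings. The share of all genes past 1.5-fold also grew in these settings, to 6.05% and 6.64% on the control and knockout arrays with an offset of 0. By values rounded to 2 decimals, signs held for 9 of 9 (control) and 8 of 9 (knockout) members with an offset of 0. With the local background subtracted they held for 7 of 9 on each array. On the knockout array Insr was scored as not held in both settings only through this rounding. It was just above 0 in the main setting (0.00) and at 0.01 in both. For knockout over control only 3 of 9 (AL) and 4 of 10 (CR) signs held with the local background subtracted. The detection filter and the signal filter changed no count, and the mean over probes is the same value here, since each member has 1 probe. Low brightness over the blank spots limits every value, above all those of Insr and Irs1. No paired analysis was possible because each group holds 1 array.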

Other observations

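Some other IGF factors are named here after their values were seen. Igfbp6, which prefers IGF2, had log2 signals of 10.45 and 10.71 in the control AL and CR hearts and of 10.81 and 11.07 in the knockout AL and CR hearts, a CR over AL value of 0.26 on both arrays. Igfbp7, a protein of vessel walls that binds IGF weakly, was at 10.63 and 10.70 in control hearts and at 11.12 and 10.62 in knockout hearts, so its CR over AL value was 0.07 and -0.50. With the local background subtracted the knockout value of Igfbp7 was 2.04. In the main setting Igf2 was highest in the control AL heart, at 7.58, against 7.08 in the control CR heart and 6.64 in both knockout hearts.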
